A study of Mus musculus with 10 samples.

Results

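Cohesin is the ring-shaped protein complex that holds sister chromatids together, and its meiotic and somatic subunits are described here in mouse male germ cells before and during meiotic prophase. The set held 10 genes, chosen by symbol from the complex's composition, with earlier results of these data known. Its subunits were the SMC genes Smc1a, Smc1b and Smc3, the kleisins Rad21 and Rec8, and the STAG genes Stag1, Stag2 and Stag3. Its regulators were Wapl and Pds5b. The set made up 10 of the 18193 genes that the arrays could read, and all 10 were above the detection floor in at least 1 group. They were represented by 27 Affymetrix probe sets, 17 on the first array design and 10 on the second; 23 were above the floor in some group and 4 in none.

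The series was made as a screen for genes that act in chromosome segregation in meiosis I. All 5 groups came from male C57BL/6 mice with no transgene or treatment named in the labels. The spermatogonia group was Percoll fraction 2 of day 8 testes, the leptotene/zygotene group was fraction 5 of day 12 testes, and the pachytene group was fraction 8 of day 15 testes. Whole testis was taken at day 15, and the somatic mix pooled 11 organs of day 15 mice (skin, spleen, muscle, kidney, colon, intestine, stomach, liver, lung, heart and brain). The fractions are enriched and not pure, and each stage has its own age, so that stage, age and fraction cannot be told apart. Markers did not separate the first 2 fractions in full: all 6 spermatogonia markers listed had a higher signal in leptotene/zygotene than in the fraction labelled spermatogonia (median log2 difference 0.87, 1 of 6 past 2-fold), for example 748 against 416 for Kit and 294 against 206 for Zbtb16. Each group had 1 array per design (10 arrays in all), so no difference of a single gene between groups has a replicate check, and among the members only Stag1, which was read on both designs, carries a p-value.

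Cohesin is built from an SMC1 and an SMC3 protein joined at their hinges and closed by a kleisin, to which a STAG protein binds. Mitotic cells use SMC1A with RAD21 and STAG1 or STAG2. In meiosis SMC1B, the kleisin REC8 and STAG3 take these places, form the axes along which homologous chromosomes pair, and hold sister chromatids together until the meiotic divisions, while SMC3 serves in both kinds of ring. WAPL opens the ring and releases it from chromatin, and PDS5 proteins bind the kleisin and regulate both release and the acetylation that locks the ring.

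Levels below are scaled signals, that is, deposited intensities brought to the same trimmed mean on all arrays of a design, and a gene is read from its brightest probe set. The detection floor was 87.2 on the first design and 47.0 on the second; a fold that meets the floor is a bound, and counts and medians take bounds at their value. A gene was called higher or lower at 2-fold or more (1 on the log2 scale). Averages over probe sets, given as an alternative, count a probe set below the floor in both groups as no difference, which makes them smaller. The 95% error limit of a log2 difference, from the 100 probe sets that both designs carry, was 0.35 for leptotene/zygotene against spermatogonia, 0.41 for pachytene against leptotene/zygotene, 0.46 for pachytene against whole testis, 0.57 for whole testis against the somatic mix and 0.42 for spermatogonia against the somatic mix. It covers the scatter of shared probe sets between arrays, and the labels do not say whether the samples hybridised to the designs were separate preparations. Disagreement between probe sets of a gene and the choice of scaling are not in the limit. In leptotene/zygotene against spermatogonia, 8 of 13 other member probe sets pointed the opposite way from the one read. Whether the limit is wide enough for dim genes was not tested.

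In the RefSeq promoter table (GRCm38.p6, 250 bases before to 50 bases after a start site), 8 members had an entry; Rad21 and Stag2 had none. The E2F-like letters GCGGGAA, searched on both strands, occurred in 4 of these 8 promoters, against 4.60% of all 32851 promoters. They were Smc1b and Stag3 of the meiotic subunits and Smc1a and Stag1 of the somatic ones; Rec8 had no match. A match describes these letters and is not a binding site. The windows of Smc1b, Stag3 and Stag1, from 140 bases before to 10 bases after the start, are shown because the match lies in each of them, with the match in capitals (read there as TTCCCGC, the opposite strand). They are Smc1b chr15:85131948-85132097 on the minus strand, Stag3 chr5:138280369-138280518 on the plus strand and Stag1 chr9:100643308-100643457 on the plus strand. The Stag3 and Stag1 start sites lie inside the gene bounds, which begin at 138272514 and 100597709, so they are not the outermost starts of these genes.
Smc1b: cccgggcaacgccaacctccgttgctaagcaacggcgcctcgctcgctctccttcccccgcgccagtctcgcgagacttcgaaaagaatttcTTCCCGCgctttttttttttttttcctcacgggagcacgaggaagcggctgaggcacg
Stag3: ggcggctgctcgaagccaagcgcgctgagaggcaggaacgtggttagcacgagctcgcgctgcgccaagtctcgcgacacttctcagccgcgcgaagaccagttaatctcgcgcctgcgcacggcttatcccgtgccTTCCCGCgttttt
Stag1: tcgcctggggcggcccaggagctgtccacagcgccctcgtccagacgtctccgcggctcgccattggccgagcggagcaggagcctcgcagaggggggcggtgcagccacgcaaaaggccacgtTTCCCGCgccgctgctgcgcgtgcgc
The match began 48 bases before the start in Smc1b, 3 before in Stag3 and 16 before in Stag1, and in Smc1a it lay at position 39 after the start. The other letters searched were rarer among the members. The E-box CACGTG was in 1 of 8 promoters (Stag3) against 7.15% of all, CNCCTCAG, the letters of the meiotic entry factor STRA8, in 1 (Pds5b) against 7.94%, and the MYB-like CAGTTG in 1 (Smc1a) against 13.7%.

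The 3 meiotic subunits were not detected in the pooled organs and were detected in the spermatogonia fraction, but they did not follow 1 course through prophase. In that fraction 4 of 5 leptotene/zygotene markers were also above the floor, for example Sycp3 at 1216. Which of its cells gave the signals of the meiotic subunits was not tested. Smc1b, the meiotic SMC1 (chromosome 15, 85064689 to 85131957, probe set 1449253_at), had a scaled signal of 278 in spermatogonia, 755 in leptotene/zygotene, 1037 in pachytene, 1289.9 in whole testis and 4.55 in the somatic mix. It was lowest in the somatic mix, below the floor there, and higher at each later stage. Stag3, the meiotic STAG protein (chromosome 5, 138272514 to 138312397, 1460229_at), had 639.9 in spermatogonia, 1420.3 in leptotene/zygotene, 3841 in pachytene, 2555 in whole testis and 22.3 in the somatic mix. It was again below the floor in the somatic mix, and it was highest in pachytene. Rec8, the meiotic kleisin (chromosome 14, 55618002 to 55625395, 1419147_at), had 177 in spermatogonia, 269 in leptotene/zygotene, 4.79 in pachytene, 116 in whole testis and 6.20 in the somatic mix. Unlike the other meiotic subunits it was below the floor in pachytene, as in the somatic mix. Each of these 3 genes had 1 probe set, so its course has no second reading.

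**Figure D1:**
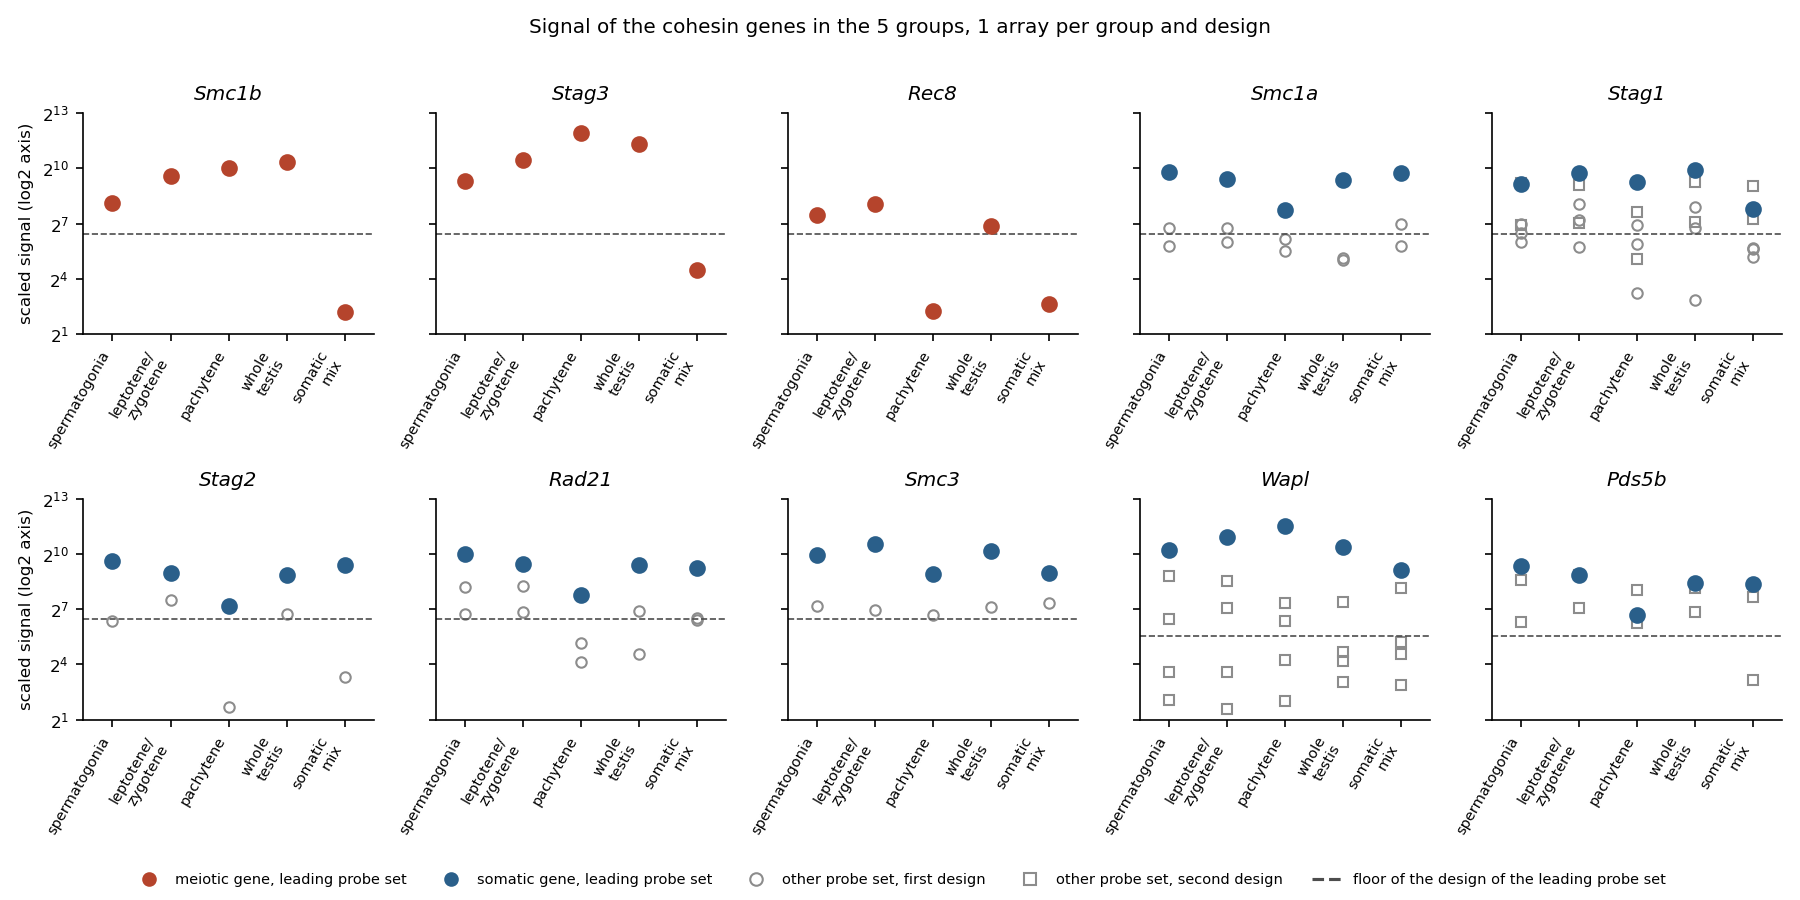
Scaled signal (log2 axis) of the 10 cohesin genes in spermatogonia, leptotene/zygotene, pachytene, whole testis and the somatic mix, 1 point per array and probe set; filled points are the probe set a gene is read from (red for meiotic, blue for somatic genes), open points are other probe sets and the dashed line is the floor. Stag3 climbs to 3841 in pachytene while Rec8 drops to 4.79, under the floor of 87.2, and Smc1a, Rad21 and Stag2 are lowest in pachytene.

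From spermatogonia to leptotene/zygotene, Smc1b rose by 1.44 and Stag3 by 1.15 on the log2 scale. They were the only members past 2-fold, and none fell by 2-fold. Over all 12927 genes measured in this comparison, 3.45% rose past 2-fold and 4.83% fell past it. Rec8 differed by 0.61, beyond the error limit but not past 2-fold. The median over the 10 members was 0.59, beside 0.02 over all genes.

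From leptotene/zygotene to pachytene the meiotic subunits separated. Stag3 rose by 1.44 and was the only member at least 2-fold higher, in a comparison in which 18.1% of all 13530 genes were. Smc1b differed by 0.46, just beyond the error limit of 0.41, an excess that depends on the scaling. Rec8 fell by at least 3.09-fold, a bound set by the floor in pachytene; with a floor at the 60th percentile of the signals the bound was only -0.26 on the log2 scale, because the leptotene/zygotene signal itself then lay close to that floor. This comparison and the preceding one share the leptotene/zygotene arrays.

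Between leptotene/zygotene and pachytene, Smc1a, Rad21 and Stag2 of the somatic subunits fell, as did the shared subunit Smc3. Stag1 differed by -0.50 on the probe set it is read from, not past 2-fold. Smc1a, the mitotic SMC1 (chromosome X, 152016428 to 152061973, 1417830_at), had 896 in spermatogonia, 691 in leptotene/zygotene, 212 in pachytene, 661 in whole testis and 849.6 in the somatic mix. Pachytene was lowest and stood apart. In order of level, the other 4 groups each differed from the next by less than the error limit. Among them, leptotene/zygotene was just beyond the limit of 0.35 below spermatogonia (-0.37). Rad21, the mitotic kleisin that separase cleaves (chromosome 15, 51962604 to 51993538, 1416161_at), had 1012, 695, 213, 662 and 594 in the same order of groups. Stag2, the X-linked STAG protein of somatic cells (chromosome X, 42149297 to 42277186, 1421849_at), had 793, 495, 146, 458 and 669. Smc3, common to both kinds of ring (chromosome 19, 53600396 to 53645831, 1450950_at), had 975, 1453, 484, 1149.8 and 504. Smc3 was highest in leptotene/zygotene on this probe set, within the error limit of whole testis, while its other probe set 1450951_at was highest in the somatic mix (161). Its pachytene level differed from that of the somatic mix by less than the error limit.

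In pachytene against leptotene/zygotene, Smc1a fell by 1.71, Rad21 fell by 1.70, Stag2 fell by 1.76 and Smc3 fell by 1.59 on the log2 scale. With Pds5b, 5 of the 7 somatic subunits and regulators fell by at least 2-fold, and with Rec8, 6 of the 10 members did; of all genes measured, 27.9% were at least 2-fold lower. The median was -1.61 over the members and -1.70 over those 7 genes, beside -0.23 over all genes. Between spermatogonia and leptotene/zygotene the same genes had differed less: the log2 difference was -0.37 for Smc1a, -0.54 for Rad21 and -0.68 for Stag2, and 0.58 for Smc3, none of them past 2-fold.

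Dimmer probe sets of these genes differed in the same direction but mostly by less. Of the 13 other member probe sets measured in pachytene against leptotene/zygotene, 11 differed in the direction of the leading one. Of the 6 that were at least 2-fold lower, 1 each was of Rad21 and Stag2, 3 were of Stag1, and 1 was of Wapl, against its leading probe set. A second Rad21 probe set, 1455938_x_at, went from 305 in leptotene/zygotene to 17.5 in pachytene, at least 3.50-fold lower, and a second Stag2 probe set, 1450396_at, from 179 to 3.16, at least 2.06-fold lower. The second Smc3 probe set, 1450951_at, differed in the same direction but by only -0.27 (122 to 101), within the error limit. The other Smc1a and Rad21 probe sets, 1417831_at at -0.30 and 1416162_at at -0.37, were bounds set by the floor in pachytene. Averaged over probe sets, the log2 difference was -0.67 for Smc1a and -0.93 for Smc3, no longer past 2-fold. The Smc1a average takes in 1417832_at, which was below the floor in every group and counts as no difference. In leptotene/zygotene against spermatogonia the probe sets disagreed more: 8 of 13 pointed the opposite way from the leading one, namely 2 each of Rad21 and Pds5b and 1 each of Stag2, Smc3, Stag1 and Wapl.

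The values of Stag1 depended on the probe set. Stag1, the other somatic STAG protein (chromosome 9, 100597709 to 100958544), had 567, 863, 609.7, 947 and 224 in spermatogonia, leptotene/zygotene, pachytene, whole testis and the somatic mix on probe set 1431921_a_at of the first design. On probe set 1434189_at of the second design it had 597, 548, 199.8, 613 and 519. The first was lowest in the somatic mix and the second in pachytene. Accordingly, pachytene against leptotene/zygotene differed by -0.50 on the first design and by -1.45 on the second, and whole testis against the somatic mix by 2.08 and by 0.24.

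Stag1 was the member that both designs could test. In limma's fit over the 2632 genes above the floor on both designs, with the array design as a block, Stag1 differed by -0.98 (SE 0.62) in pachytene against leptotene/zygotene, with a Benjamini-Hochberg adjusted p of 0.35 (0.15 to 1 over the alternatives), and was lower on both designs. It differed by 1.16 (SE 0.62) in whole testis against the somatic mix, with an adjusted p of 0.41 in limma's fit (0.12 to 1 over the alternatives), and was higher on both designs. Neither passed, nor did leptotene/zygotene against spermatogonia (0.24, SE 0.62, adjusted p of 1 in limma). The same limma fit called 236 genes (8.97%) in the pachytene comparison and 44 (1.67%) in that of whole testis. Without either leptotene/zygotene array it called 0 in the first, without either whole testis array 0 in the second, and without the block 0 in both. It called 0 of 2632 genes in leptotene/zygotene against spermatogonia, where 71 had an unadjusted p under 0.05. The p-values measure the spread between these arrays and probe sets, which may be technical.

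**Figure D2:**
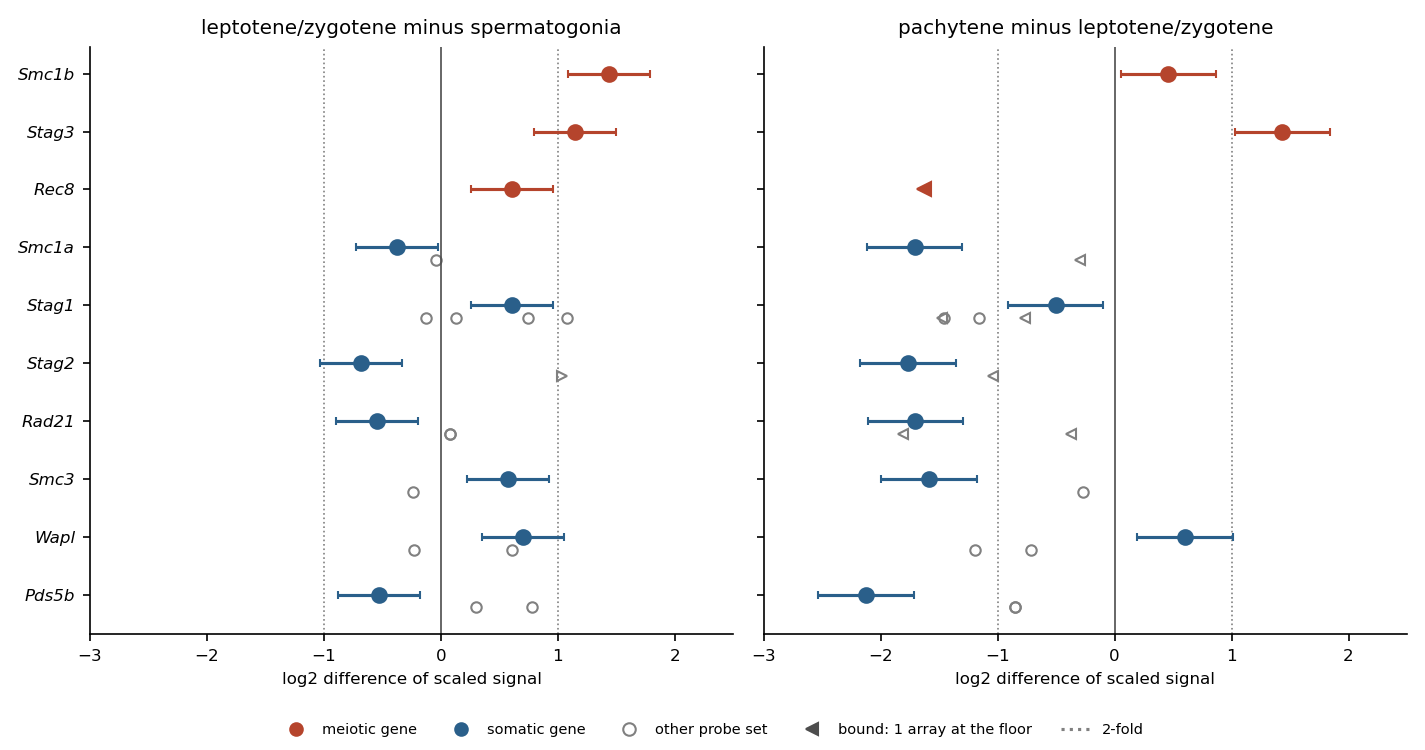
Log2 differences of the 10 members in leptotene/zygotene minus spermatogonia (left) and pachytene minus leptotene/zygotene (right); filled points are the probe set a gene is read from, with the 95% error limit as a bar where both arrays are above the floor, triangles are bounds, open symbols are other probe sets, and dotted lines mark 2-fold. On the right Stag3 lies at 1.44 and Smc1a, Rad21, Stag2 and Smc3 lie between -1.76 and -1.59.

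Setting each meiotic gene against its somatic paralog within the same arrays removes any scaling factor of an array where all values are above the floor. A contrast with a value at the floor is a bound and can still move with the scaling. Smc1b differed from Smc1a by 2.16 on the log2 scale (4.48-fold) between leptotene/zygotene and pachytene, with a 95% error limit of 0.58. Stag3 differed from Stag2 by 3.20 (9.19-fold) and from Stag1 by 1.94 (3.83-fold). Rec8 against Rad21 showed no such separation: both fell, and the contrast was at most 0.08.

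Between spermatogonia and leptotene/zygotene the contrast of Smc1b with Smc1a was 1.81, of Rec8 with Rad21 1.15, of Stag3 with Stag2 1.83 and of Stag3 with Stag1 0.54, with an error limit of 0.50. On the leading probe sets all 4 favoured the meiotic gene, the last by little more than the limit. The second Stag2 probe set, 1450396_at, rose by at least 1.04 and 1421939_a_at of Stag1 by 1.08, nearly as much as Stag3 (1.15). The remaining Stag1 probe sets lay between -0.13 and 0.74. In whole testis against the somatic mix, with an error limit of 0.81, the contrasts were at least 4.25 for Smc1b with Smc1a, at least 5.42 for Stag3 with Stag2 and at least 2.79 for Stag3 with Stag1. That of Rec8 with Rad21 was at least 0.26, a bound inside the limit, and it was -0.16 with the higher floor, where Rec8 lay below it in both groups. Averaging over probe sets reduced the pachytene contrast of Smc1b with Smc1a to 1.13 and the spermatogonia to leptotene/zygotene contrasts of Stag3 with Stag2 to 0.97 and of Rec8 with Rad21 to 0.74.

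**Figure D3:**
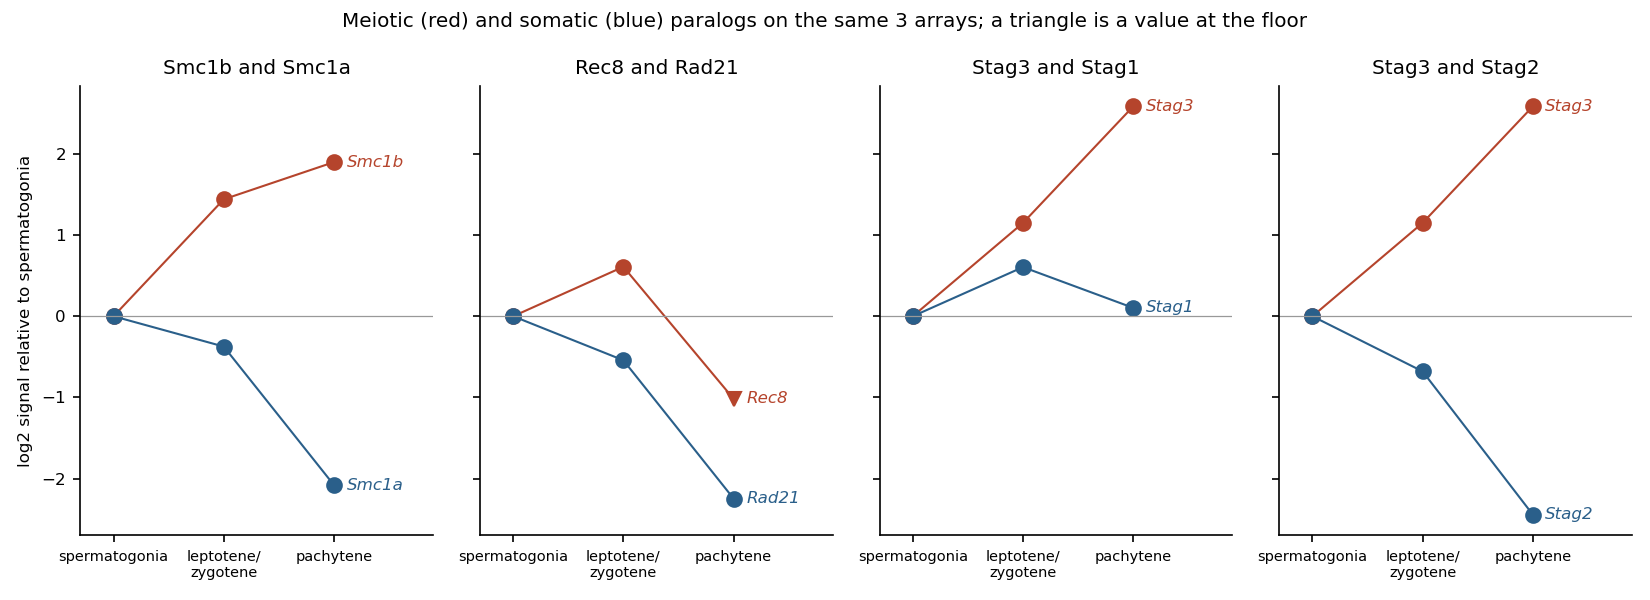
Log2 scaled signal relative to spermatogonia of each meiotic gene (red) and its somatic paralog (blue) in spermatogonia, leptotene/zygotene and pachytene, 1 array per point; a triangle is a value at the floor. The lines of Smc1b and Smc1a and those of Stag3 and Stag2 part by 1.81 and 1.83 up to leptotene/zygotene. They part by a further 2.16 and 3.20 from there to pachytene, where Rec8 and Rad21 both go down.

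The regulators Wapl and Pds5b, both read on the second design, differed with opposite signs between leptotene/zygotene and pachytene on their brightest probe sets. Wapl, the release factor (chromosome 14, 34672379 to 34747983, 1434835_at), had 1169.7 in spermatogonia, 1901 in leptotene/zygotene, 2888 in pachytene, 1317 in whole testis and 549 in the somatic mix. It was highest in pachytene and lowest in the somatic mix. Pachytene differed from leptotene/zygotene by 0.60, not past 2-fold, and was higher than whole testis by 1.13. The direction of Wapl between leptotene/zygotene and pachytene is not settled: it was -0.32 after quantile normalization and 1.01 to 1.13 under median scaling, deposited values and scaling to the shared probe sets. Its probe set 1434778_at went the other way, from 375 in leptotene/zygotene to 164 in pachytene, a fall of 2.29-fold, and 1442426_at from 133 to 80.7.

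Pds5b, the PDS5 paralog in the set (chromosome 5, 150673713 to 150810669, 1436161_at), had 655, 453, 104, 336 and 332 in spermatogonia, leptotene/zygotene, pachytene, whole testis and the somatic mix. Its pachytene value was the lowest of the 5, and it was the only member to fall by over 4-fold between leptotene/zygotene and pachytene (4.36-fold), as did 9.36% of all genes. Its other probe sets differed by less: 1435242_at went from 469 to 260.2 (-0.85) and 1441553_at from 134 to 74.4 (-0.85).

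Smc1a and Stag2 are X-linked, and the X chromosome as a whole was lower in pachytene. The X chromosome is silenced in pachytene spermatocytes within the sex body. Of 437 X-linked genes measured, 293 (67.0%) were at least 2-fold lower in pachytene than in leptotene/zygotene, with a median of -1.62, against 3464 of 13059 autosomal genes (26.5%) with a median of -0.19. Smc1a at -1.71 and Stag2 at -1.76 lay close to the X median. The autosomal genes Rad21 at -1.70, Smc3 at -1.59 and Pds5b at -2.12 were as low, far from the autosomal median. Between spermatogonia and leptotene/zygotene, 7.16% of X-linked genes were at least 2-fold lower, and neither Smc1a nor Stag2 was among them. The part of X silencing in the lower Smc1a and Stag2 was not tested.

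**Figure D4:**
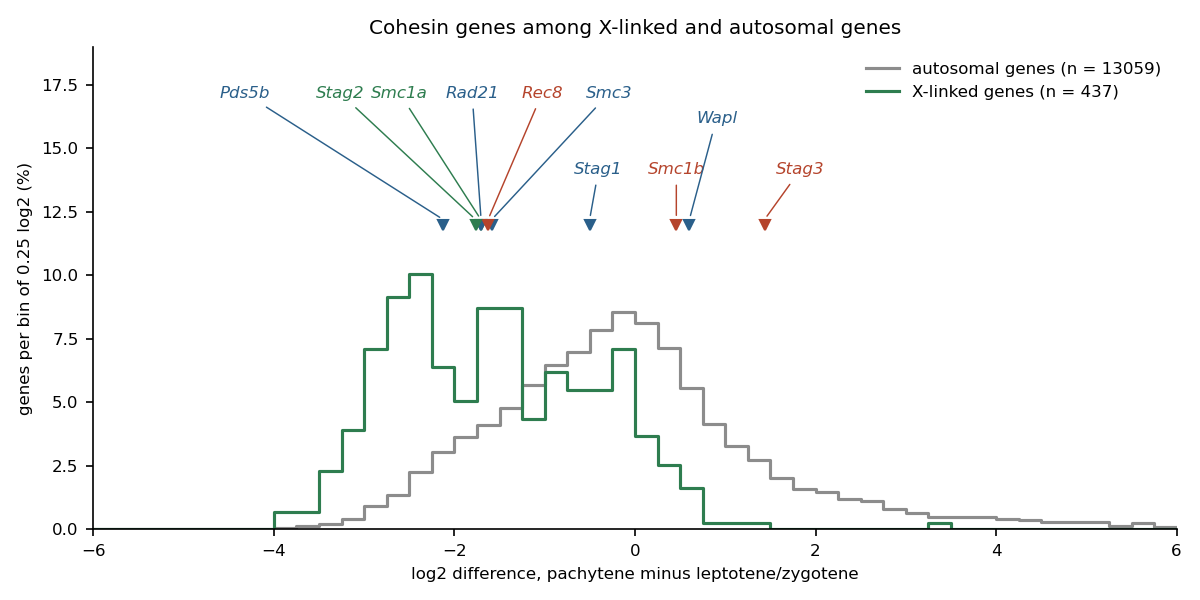
Log2 difference, pachytene minus leptotene/zygotene, on the x axis and the percent of genes per bin on the y axis, for the 437 X-linked (green) and 13059 autosomal (grey) genes measured; triangles mark the members (green X-linked, red meiotic, blue other; Rec8 is a bound). Smc1a (-1.71) and Stag2 (-1.76) sit near the X-linked median of -1.62, and Rad21, Smc3 and Pds5b sit well below the autosomal median of -0.19.

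Most marker genes of testicular somatic cells moved with the drop of Smc1a, Rad21, Stag2, Smc3 and Pds5b. Somatic cohesin is expressed in those cells too, and in bulk fractions fewer cells of a type and less RNA per cell cannot be told apart. All 7 Sertoli cell markers were at least 2-fold lower in pachytene than in leptotene/zygotene (median -2.42), 6 of 7 remained above the floor in pachytene, and their summed signal was 24236 in spermatogonia, 21689 in leptotene/zygotene, 5431 in pachytene, 17850.0 in whole testis and 4343 in the somatic mix. All 4 Leydig cell markers with a probe set were lower (median -2.72), with summed signals of 7725, 4049, 401, 2871 and 307 in the same order. Of 7 peritubular and stromal markers 4 were lower (median -1.09), with 31526, 15703, 9048, 18310.1 and 18205. The macrophage and blood markers ran the other way, at 667, 1343, 2926, 2579.8 and 8657. Spermatogonia markers were also lower in 5 of 6 cases. The part of these cells in the lower Smc1a, Rad21, Stag2, Smc3 and Pds5b was not tested.

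Pachytene markers fitted the label of the pachytene fraction, while the spermatogonia markers, given at the start, did not single out the fraction of that name. The leptotene/zygotene markers fitted their label only in part. All 6 pachytene markers were at least 2-fold higher in pachytene than in leptotene/zygotene (median 4.55), and none of them was above the floor in spermatogonia. All 5 leptotene/zygotene markers were higher in leptotene/zygotene than in spermatogonia, but only 1 of 5 was at least 2-fold lower in pachytene (median -0.89). Sycp3, Sycp1, Hormad1 and Meiob were highest in whole testis, for example 1675 for Sycp1 against 949 in leptotene/zygotene. The spermatogonia marker Dmrtb1 was highest in pachytene (4425, against 218 in spermatogonia). The spermatid genes Tnp1, Tnp2 and Prm2 were below the floor in every group. Scaling moved the values of all genes. In pachytene against leptotene/zygotene the median over genes measured on both sides was -0.25 as scaled here and 0.21 when scaled to the shared probe sets, and higher genes made up 39.3% of those past 2-fold here and 56.6% there. In the other comparisons the same shift moved that share from 41.6% to 55% for leptotene/zygotene against spermatogonia and from 50.7% to 62.6% for whole testis against the somatic mix with values as deposited, from 38.4% to 61% for pachytene against whole testis under median scaling, and from 49.7% to 36.3% and 64.9% for spermatogonia against the somatic mix with scaling to the shared probe sets and with values as deposited. The 6 falls of the members were found under all 4 other scalings.

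Against whole testis, which holds all testicular cells of the same age, the pachytene fraction was at least 2-fold lower for Smc1a (-1.64), Rad21 (-1.64), Stag2 (-1.65), Pds5b (-1.69) and Smc3 (-1.25), that is 5 of 10 members, where 20.6% of all 13850 genes were. Only Wapl was at least 2-fold higher, where 12.8% of all genes were, and after quantile normalization its difference was 0.28, short of the call. Of the meiotic subunits, Stag3 differed by 0.59, beyond the error limit of 0.46, and Smc1b by -0.31, within it. Rec8 was lower by at least 0.42, a bound inside that limit, since pachytene was below the floor. Under median scaling Smc1b was at 0.05 and Smc3 at -0.89, and averaged over probe sets none of the 10 was past 2-fold in either direction. This comparison shares the pachytene arrays with the stage comparison.

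Whole testis stood above the somatic mix for both the meiotic subunits and part of the somatic ones. Stag3 was at least 4.87 and Smc1b at least 3.89 higher on the log2 scale, Stag1 higher by 2.08, Wapl by 1.26 and Smc3 by 1.19, so 5 of 10 members were past 2-fold and none lower, beside 19.2% of all 15031 genes higher and 18.7% lower. Stag3, Smc1b and Stag1 were past 4-fold, as were 7.24% of all genes. Averaged over probe sets, 2 members stayed past 2-fold: Stag1 was at 0.96, Smc3 at 0.49 and Wapl at 0.10. Stag1 differed by 0.24 on 1434189_at, and 1450951_at of Smc3 (-0.21) and 1434778_at of Wapl (-0.74) pointed the other way. Rec8 was higher by at least 0.42 only, a bound inside the error limit, since its whole testis level of 116 lay close to the floor. Smc1a (-0.36), Stag2 (-0.55), Rad21 (0.16) and Pds5b (0.02) differed by less than the error limit of 0.57. The liver gene Alb had a signal of 3907 in whole testis, against 46.4 to 94.9 in the 3 fractions and 17453 in the somatic mix; what part other tissue in that sample had in these differences was not tested.

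The spermatogonia fraction also exceeded the somatic mix for all 3 meiotic subunits: Stag3 by at least 2.88, Smc1b by at least 1.67 and Rec8 by at least 1.02. Stag1 (1.34) and Wapl (1.09) were higher as well, making 5 of 10 members, where 17.4% of all 14674 genes were, and none was lower, where 17.6% of all genes were. Smc3 and Pds5b differed by 0.95 and 0.98, beyond the error limit but not past 2-fold, and Smc1a (0.08) and Stag2 (0.25) by less than the limit. Quantile normalization, scaling to the shared probe sets, the higher floor and averaging over probe sets each left 3 members past 2-fold, and Rec8 and Wapl were the ones most often lost.

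The order of the groups, read with the error limits, fell into a few forms. The limits do not cover the choice of scaling. Between leptotene/zygotene and pachytene it moved Nipbl, on the first design, from 1.80 to 1.46 as deposited and 2.17 under median scaling. Shifts of that size can bring the steps of Smc1b (0.46) and Stag1 (0.50) between these groups inside the limit of 0.41. Smc1a and Stag2 had 4 groups in which each differed from the next by less than the limit, with pachytene beyond the limit below them. These 4 groups were not level: leptotene/zygotene was beyond the limit below spermatogonia, by -0.37 for Smc1a and -0.68 for Stag2 on their leading probe sets. Rad21 and Pds5b were highest in spermatogonia, beyond the limit above leptotene/zygotene, and lowest in pachytene, on their leading probe sets; their other probe sets were higher in leptotene/zygotene than in spermatogonia. Stag3 had 5 levels, each beyond the limit from its neighbour: pachytene, whole testis, leptotene/zygotene, spermatogonia and the somatic mix, from high to low. For Smc1b, whole testis and pachytene did not differ beyond the limit. For Rec8, whole testis was above the floor and pachytene and the somatic mix below it, so the size of that gap is known only as a bound. Stag1 had whole testis beside leptotene/zygotene, then pachytene beside spermatogonia, then the somatic mix. For Wapl, whole testis and spermatogonia did not differ beyond the limit.

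Of 13 other genes of the cohesin pathway listed, 12 had a probe set, Rad21l had none matched and was not analysed here, and 11 were above the floor in some group. Hdac8, the X-linked deacetylase that recycles SMC3, was below the floor in all 5 groups. The loader was read through Nipbl and Mau2. Nipbl had 208, 268, 936, 757 and 250.1 on the first design in spermatogonia, leptotene/zygotene, pachytene, whole testis and the somatic mix. It rose by 1.80 between leptotene/zygotene and pachytene, and its brightest probe set on the second design, 1437158_at, rose by 1.07 (1475 to 3099); limma's fit over both designs gave 1.44 with an adjusted p of 0.32 (0.075 to 1 over the alternatives). Whole testis against the somatic mix went opposite ways on the designs for Nipbl, 1.60 and -1.60. Mau2 differed by -0.67 in the pachytene comparison, not past 2-fold; it was -0.12 after quantile normalization and -1.02 as deposited, and its probe set 1426250_s_at differed by 0.53.

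The acetyltransferases that lock the ring divided. Esco2, which acts in S phase, had 104, 239, 26.8, 63.1 and 22.5, so it rose by 1.21 from spermatogonia to leptotene/zygotene and then fell by at least 5.08-fold. Esco1 had 951, 1606, 1192, 1249 and 410.0 and differed by -0.43 in the pachytene comparison. Cdca5, the sororin that counters release, differed by -0.16 there, a direction that turned under median scaling (0.21) and scaling to the shared probe sets (0.27). Pds5a, the other PDS5 protein, had 146, 300.0, 92.7, 89.9 and 126 on the first design: it rose by 1.04 and fell by 1.69 in turn, but its probe sets on the second design were below the floor from leptotene/zygotene on and differed by -0.15 and 0.

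Protectors and cleavage factors act at the end of the ring's life. Sgo1, a shugoshin, fell by 1.88 (513 to 140 in pachytene), and its probe set on the second design differed by -0.67, a bound; limma's fit over both designs gave -1.27 with an adjusted p of 0.15 (0.13 to 1 over the alternatives). Sgo2a, the shugoshin that guards REC8 at centromeres, had 336, 438, 642, 536 and 135 and differed by 0.55 (0.24 after quantile normalization and 1.08 as deposited). Espl1, separase, had 469, 936, 1302, 537 and 188; it was 1.99-fold higher in leptotene/zygotene than in spermatogonia, just short of the call, and differed by 0.48 from there to pachytene, a value that was -0.17 after quantile normalization and 1.00 as deposited. Pttg1, securin, rose by 1.53 in pachytene (4603 to 13331). Ctcf, the DNA-binding protein at which cohesin halts, fell by 1.40 on its brightest probe set (628 to 239), which was -0.89 after quantile normalization and -0.97 with scaling to the shared probe sets, short of the call, and it differed by 0.12 on the other probe set.

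Counted over the list, 2 of 11 measured genes were at least 2-fold higher in leptotene/zygotene than in spermatogonia (Pds5a and Esco2) and 0 lower, where 3.45% and 4.83% of all genes were, with a median of 0.39. Between leptotene/zygotene and pachytene 2 were higher (Nipbl and Pttg1) and 4 lower (Pds5a, Esco2, Ctcf and Sgo1), where 18.1% and 27.9% of all genes were, with a median of -0.43 beside -0.23 for all genes and -1.61 for the 10 members. In whole testis against the somatic mix 6 were higher (Nipbl, Cdca5, Esco1, Sgo1, Sgo2a and Espl1) and 0 lower, where 19.2% and 18.7% of all genes were, with a median of 1.04 beside -0.07 for all genes. Of these 6, Nipbl (-1.60) and Sgo1 (-0.68) reversed on the other array design, and Cdca5 was at 0.38 with plain probe sets. Esco1 was at 0.80 averaged over its 2 probe sets, of which only 1 was ever above the floor.

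**Figure D5:**
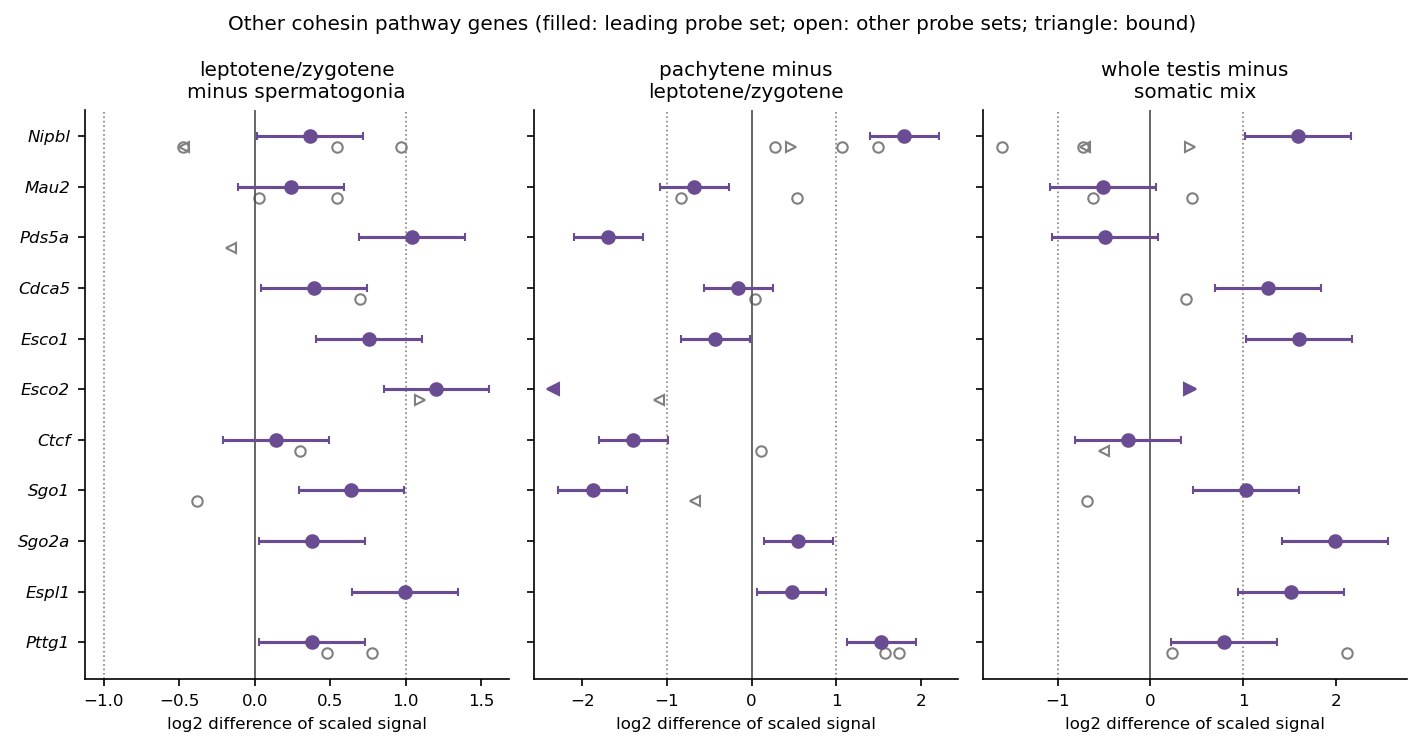
Log2 differences of the other cohesin pathway genes in the 3 comparisons named on the plot, drawn as for the members: filled symbols with 95% error limits are the probe sets the genes are read from, triangles are bounds, and open symbols are other probe sets. In pachytene minus leptotene/zygotene Nipbl (1.80) and Pttg1 (1.53) lie above the 2-fold line and Pds5a, Esco2, Ctcf and Sgo1 below it.

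The genes with the most similar course over the 5 groups were found by the root mean square distance between log2 profiles, each centred on its own mean, among 8469 genes of the first design and 6141 of the second. For Smc1a they were Taz (0.030), Atp6ap2 (0.030) and Snrk (0.059), of which the first 2 lie on the X chromosome. For Stag2 they were Pip4p2 (0.073), Idh1 (0.094) and Clint1 (0.11), none of them X-linked. For Smc1b they were Stk31 (0.15), Dnajc2 (0.30) and Sugp2 (0.30). For Stag3 they were Smc5 (0.22), a subunit of the related SMC5/6 complex, the checkpoint kinase gene Atr (0.31) and Trim37 (0.32). Neighbours of the meiotic SMC and STAG genes lay farther away in log2 units than those of the other members, whose first neighbours were at 0.030 to 0.11. By correlation over the 5 arrays they were about as close: 0.998 for Stag3 with Smc5 and 0.994 for Smc1b with Stk31. The other first neighbours had 0.995 (Rec8 with Mapk7) to 0.999 (Smc1a with Taz). The Rec8 profile takes pachytene and the somatic mix at the floor. For the kleisins, Rad21 was nearest to Derl1 (0.081) and Rec8 to Mapk7 (0.071). Smc3 was nearest to Naf1 (0.039), Stag1 to Ubap2l (0.056), Wapl to Sesn3 (0.11) and Pds5b to Rapgef2 (0.078). The profiles rest on 5 arrays of 1 design each and share their scaling.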

How the data were processed

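RNA of 5 groups was hybridised to Affymetrix MOE430A and MOE430B arrays, 1 array per group and design. The deposited values are linear signal intensities from GCOS 1, per the submitters' processing notes, with 1 value per probe set; for their scaling and background correction, the sources used here give nothing. The intensity that the authors deposited was divided by each array's 2% trimmed mean (383 to 484 on the first design, 63.4 to 148 on the second) and brought to the mean of these over the design. The floor was the 90th percentile of 72 probe sets of chemosensory receptors there; on the second, with 15 such probe sets, it was the median signal. Between 55.5% and 64.2% of probe sets on the first design and 42.7% and 56.0% on the second were above it. The number of arrays limits the precision.

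Probe sets were named through the platform annotation: 20393 of 22690 and 14674 of 22575 had 1 gene symbol, 691 and 245 had several and were not used, and 1606 and 7656 had none. Symbols were updated through Entrez gene identifiers in the RefSeq gene table (GRCm38.p6), which also gave the gene positions; 20364 and 14499 probe sets matched. A gene was read from its brightest probe set, the first design preferred. Single genes have no test. For the error limit, the log2 difference of each of the 100 shared probe sets was taken on both designs; the root mean square of the gaps, over the root of 2, was multiplied by 1.96.

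Genes on both designs were fitted with limma 3.58.1 (R 4.3.3; lmFit and eBayes), Benjamini-Hochberg adjusted over all 2632 genes and called under 0.05. The replicate number, which is the array design, was a block; over 10 pairs of groups, deviations of samples with the same number correlated at -0.02 to 0.57, and 7 pairs were over 0.1. The scripts were tested on simulated data. The 10 members, the pathway genes and, for each member, the 3 genes of nearest profile (above the floor in at least 3 groups) were the genes to be named. The members and lists were chosen with earlier results of these data known. Alternatives covered scaling, floor, probe set, array design, block and leaving out arrays.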

Additional observations from a re-analysis of the deposited data

How the results depend on the processing

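Only Stag1 among the members was on both designs, 1 array per group and design limits every value, and signals near the floor have no depth below it. Counts of members changed with the processing as follows. In pachytene against leptotene/zygotene, 2 members were at least 2-fold higher under median scaling, with values as deposited and with scaling to the shared probe sets (1 as reported). There, 4 were lower averaged over probe sets (without Smc1a and Smc3), 5 with the floor at the 60th percentile (without Rec8) and 7 with Stag1 read on the other design (6 as reported). In pachytene against whole testis, 0 were higher after quantile normalization and averaged over probe sets, and 0 were lower averaged over probe sets. In whole testis against the somatic mix 2 were higher averaged over probe sets. In spermatogonia against the somatic mix 3 were higher after quantile normalization, with scaling to the shared probe sets, with the floor at the 60th percentile and averaged over probe sets.

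Of the paralog contrasts, 83 of 108 values under the alternatives moved by less than the error, and these moved. In leptotene/zygotene against spermatogonia, Smc1b with Smc1a was 1.54 on log2 of signal plus the floor, Rec8 with Rad21 was 0.80 with the higher floor and 0.74 averaged, and Stag3 with Stag2 was 0.97 averaged. In pachytene against leptotene/zygotene, Smc1b with Smc1a was 1.78 after quantile normalization, 1.80 on log2 of signal plus the floor and 1.13 averaged. Rec8 with Rad21 was -0.32, -0.27 (median scaling), 1.37 (higher floor), -0.57 (signal plus the floor) and -0.33 (averaged), a bound except on signal plus the floor. Stag3 with Stag1 was 1.52 after quantile normalization, and Stag3 with Stag2 was 2.44 there, 2.58 with the higher floor, 2.70 on signal plus the floor and 2.84 averaged. In whole testis against the somatic mix the higher floor gave 2.88 for Smc1b with Smc1a, -0.16 for Rec8 with Rad21, 1.43 for Stag3 with Stag1 and 4.06 for Stag3 with Stag2. Rec8 with Rad21 was 0.99 on signal plus the floor, Stag3 with Stag1 was 3.91 averaged and 4.55 with plain probe sets, and Stag3 with Stag2 was 4.99 averaged. The contrasts could not be read on the other array design, where no pair has both genes.

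Among the pathway genes, those higher in leptotene/zygotene than in spermatogonia numbered 1 with the higher floor, with plain probe sets and on the other array design, and 0 on signal plus the floor. In pachytene against leptotene/zygotene 4 were higher with values as deposited, and 2 were lower on the other design. In whole testis against the somatic mix 1 was lower on the other design. Pds5a reversed to -0.15 in leptotene/zygotene against spermatogonia with plain probe sets and on the other design; Nipbl reversed to -1.60 and Sgo1 to -0.68 in whole testis against the somatic mix on the other design. The cause of these changes was not tested.

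In limma's fit over both designs, 236 genes were called in pachytene against leptotene/zygotene, 144 with values as deposited and 118 after quantile normalization. In whole testis against the somatic mix 44 were called and 21 with values as deposited. Without the replicate block 0 genes were called in either comparison. Leaving out 1 array at a time gave 0 to 295 and 0 to 58 genes called, and 0 to 0 in leptotene/zygotene against spermatogonia. Stag1 stayed above the threshold of 0.05 under the alternatives run.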
